A study of Caenorhabditis elegans with 10 samples.

Results

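The insulin-like peptide genes of Caenorhabditis elegans were taken as every protein-coding gene with the symbol ins- and a number, plus daf-28, which gave 39 of the 46756 genes in the count table. They were measured by RNA-seq in whole, early L1 hermaphrodite larvae of 2 strains, with 5 libraries per strain numbered 1, 4, 5, 6 and 7. In both strains the endogenous pbrm-1 gene carried GFP and loxP sites (allele rd31), and pbrm-1 encodes a subunit of the PBAF chromatin remodeling complex. In pbrm-1(TS-KO) animals (strain RA678) the inserted transgene rdIs74 used the hnd-1 promoter to express a GFP nanobody joined to ZIF-1, together with Cre, so that PBRM-1 was removed by recombination and by protein degradation in mesodermal cells. In pbrm-1(control) animals (strain RA685) the inserted transgene rdIs79 used the same promoter to express ZIF-1 alone, without the nanobody and Cre. According to the paper, TS-KO and control animals also share a mutated unc-119 gene, rescued by unc-119 of Caenorhabditis briggsae. Adults of each strain moved more slowly than animals with rd31 and no transgene. The authors hypothesize that unc-119 function was not fully restored. Levels without this shared background were not measured. Each genotype was represented by 1 strain with its own transgene insertion, so the knockout and other differences between these strains cannot be told apart. Embryos from hypochlorite-treated adults were hatched overnight without food, and the strains were reared and collected in parallel, with each replicate on a different day. The study also noticed TS-KO larvae without any GFP, which its authors thought likely to come from recombination of pbrm-1 in the mother.

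Insulin-like peptides are small secreted ligands of 1 insulin receptor, DAF-2. When the receptor is activated, phosphoinositide 3-kinase and AKT signaling keeps the FOXO transcription factor DAF-16 out of the nucleus. Some of the peptides act as agonists of the receptor and others as antagonists, and many are made in sensory neurons or in the intestine. Larvae that hatch without food stop their development in L1, and insulin-like signaling is part of the control of this arrest.

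Libraries held between 35922561 and 46553938 counts in TS-KO and between 36354418 and 45126931 in control. The targeted gene pbrm-1 was at 247 ± 11.5 CPM (counts scaled to library size; SD, n = 5) in TS-KO and 263 ± 23.9 in control, with ranges of 233 to 265 and 224 to 286 that overlapped, and its log2 fold change was -0.09 (SE 0.0641, adjusted p = 0.433 by edgeR). These counts cover exons inside and outside the deleted stretch, in the whole animal, so they do not check the knockout. The paper checked it otherwise: its exon-level test found most of the deleted pbrm-1 exons reduced in TS-KO. It also saw no PBRM-1::GFP in the somatic gonadal precursors of these larvae. No marker gene of the neuron, sensory neuron, intestine, cuticle or body wall muscle lists was at 0 in all libraries. The summed CPM of the 10 hypodermis and cuticle markers was 768 in control replicate 5, against 26.2 to 100.6 in the other controls and 26.4 to 51.9 in TS-KO.

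The members lay on all 6 chromosomes of the WBcel235 assembly, with 15 on chromosome II, 10 on I, 5 on III, 4 on IV, 3 on V and 2 on X. Of the 39 genes, 25 fell into 7 groups of neighbors no more than 20 kb apart. The largest group held 7 genes, ins-28, ins-29, ins-25, ins-27, ins-24, ins-30 and ins-26, within 25.4 kb of chromosome I (14012369 to 14037777). The next held 6 genes, ins-2, ins-3, ins-4, ins-5, ins-6 and ins-20, within 22.8 kb of chromosome II (5988524 to 6011321). The genes are short, and their annotated exons covered between 284 bases for ins-16 and 955 bases for ins-37. Exons of 5 members shared bases with another gene: ins-36 with Y53H1A.7, ins-34 with nkcc-1 and ins-10 with vps-39 on the opposite strand, ins-13 with acdh-2 on its own strand, and ins-37 with F08G2.9 and R05D7.8. Whether reads were counted by strand is not given in the sources used here, so values of these 5 genes are uncertain. Reads shared between near-identical members were not examined.

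Of the 39 members, 28 (71.8%) were counted well enough to test, meaning that they passed edgeR's filterByExpr, which asks for about 10 counts in a library of median size in at least 5 libraries. Of these, 12 had at least 100 counts in every library and 22 had at least 10 in every library, while ins-7, ins-4, ins-34, ins-2, ins-33 and ins-36 fell under 10 in some library. Of the 28, 21 reached the limit of the filter, 0.236 CPM, in all 10 libraries. Of the tested members, 1, ins-7, passed through the control libraries only, since 5 control libraries and 0 TS-KO libraries reached the limit. The 11 members that were not tested were ins-8, ins-9, ins-13, ins-15, ins-19, ins-21, ins-23, ins-31, ins-32, ins-37 and ins-39. Their counts never exceeded 16 in a library, and their totals over the 10 libraries ran from 2 for ins-13 to 97 for ins-21. In 5 of them, ins-8, ins-9, ins-13, ins-19 and ins-39, some libraries had no count. The ins-39 counts in TS-KO were 2, 1, 0, 1 and 0, and all 5 control libraries were at 0, which allows up to 0.0143 CPM over the control group (3 counts; counting error only). A fit with no filter on low counts tested all 39 members and called none of these 11. Their low counts limit what such a fit can show.

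Levels of the members covered a wide range. Expressed as CPM per kilobase of annotated exon, the tested members differed 238-fold, from 124.5 ± 13.1 (SD over all 10 libraries) for ins-17 to 0.524 ± 0.198 for ins-36. The level of ins-17, whose product is known as an antagonist of DAF-2, was 98.8 to 141 per kilobase, and this range did not meet that of any other member. It was 2.6 times the level of the next gene, ins-35, at 47.9 ± 8.87 (32.4 to 64.1). The intestinal gene ins-35, the antagonist gene ins-1 (45 ± 3.82, 38.4 to 49.0) and the antagonist gene ins-18 (36.1 ± 5.05, 30.7 to 45) followed in that order with overlapping ranges. Next were ins-27 at 30.4 ± 5.51 and ins-30 at 28.8 ± 2.75, also overlapping, and daf-28, an agonist gene expressed in sensory neurons, at 23.5 ± 4.31. The levels of ins-29 (17.6), ins-10 (16.1), ins-24 (14.6), ins-3 (11.9) and ins-25 (11.2) came after these, and every other member was under 10 per kilobase.

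**Figure D1:**
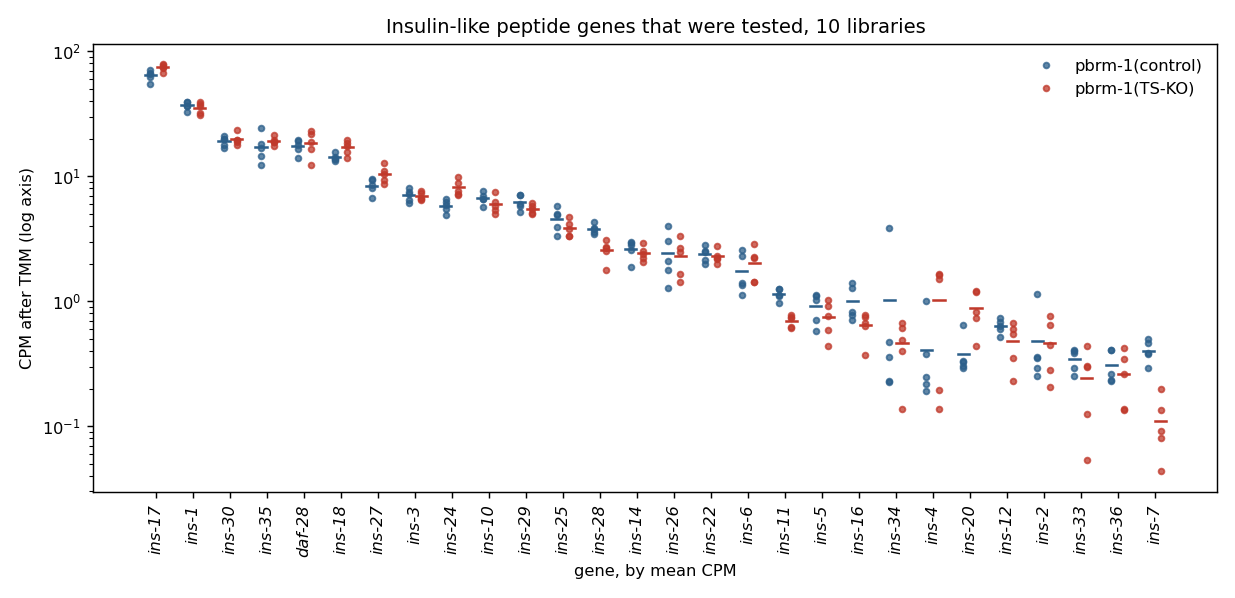
CPM after TMM scaling (log axis) of the 28 tested insulin-like peptide genes in each library, ordered by mean CPM. Points are libraries, short lines are the means of 5 libraries, blue is pbrm-1(control) and red is pbrm-1(TS-KO); ins-17 was highest in every library, and ins-7, at the right, was lower in every TS-KO library than in any control library.

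Few genes made up most of the counts of insulin-like genes, here without correction for gene length. The summed level of all 39 members was 227 to 260 CPM in TS-KO and 208 to 238 in control, and these ranges overlapped. Between 26.5% and 32.4% of it came from ins-17 alone, and between 64.7% and 70.1% from the 5 members with the highest CPM. In whole animals, fewer cells of a type and less RNA per cell cannot be told apart.

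The comparison of the strains asks which genes change when PBRM-1 is removed from mesodermal tissues. Of the insulin-like genes, 5 differed, and they did not move in 1 direction: ins-7, ins-11 and ins-28 were lower in TS-KO, by 3.65-fold, 1.64-fold and 1.49-fold, and ins-20 and ins-24 were higher, by 2.28-fold and 1.4-fold. These 5 of 28 tested members (17.9%) had an adjusted p of at most 0.05 in edgeR's quasi-likelihood test, with adjustment over all 16817 genes tested and no limit on the fold change, against 7.72% of all genes. The count includes ins-7, which was tested only because its control libraries passed the filter. With at least 10 counts required in every library, ins-7 was not tested, and the other 4 were called among 22 members, against 8.21% of all genes. The 2 higher members compare with 3.44% of all genes called higher, and the 3 lower members with 4.28% called lower. Before adjustment, 9 of 28 members (32.1%) had a p under 0.05, against 24.1% of all genes. The median log2 fold change of the 28 members was -0.08, with 10 above 0 and 18 below, and that of all genes was 0.00. Their median absolute log2 fold change was 0.24, against 0.14 over all genes. All genes were not matched to the members by count level, and the part of counting noise in this difference was not tested. The 5 libraries of TS-KO and the 5 of control did not overlap for 4 of the 28 members (14.3%), ins-24 on the higher side and ins-7, ins-11 and ins-28 on the lower, against 9.26% of all genes tested. For ins-7, 5 control and 0 TS-KO libraries reached the limit of the filter, which already sets the strains apart. Its place among the 4 therefore adds no support to that count. With DESeq2, 4 of the 26 members given an adjusted p were called, ins-11, ins-20, ins-24 and ins-28, against 11.8% of all genes; DESeq2 gave none to ins-7 and ins-34. When edgeR was run with a block for the replicate number, 7 members were called, the same 5 with ins-17 and ins-18, against 10.9% of all genes.

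**Figure D2:**
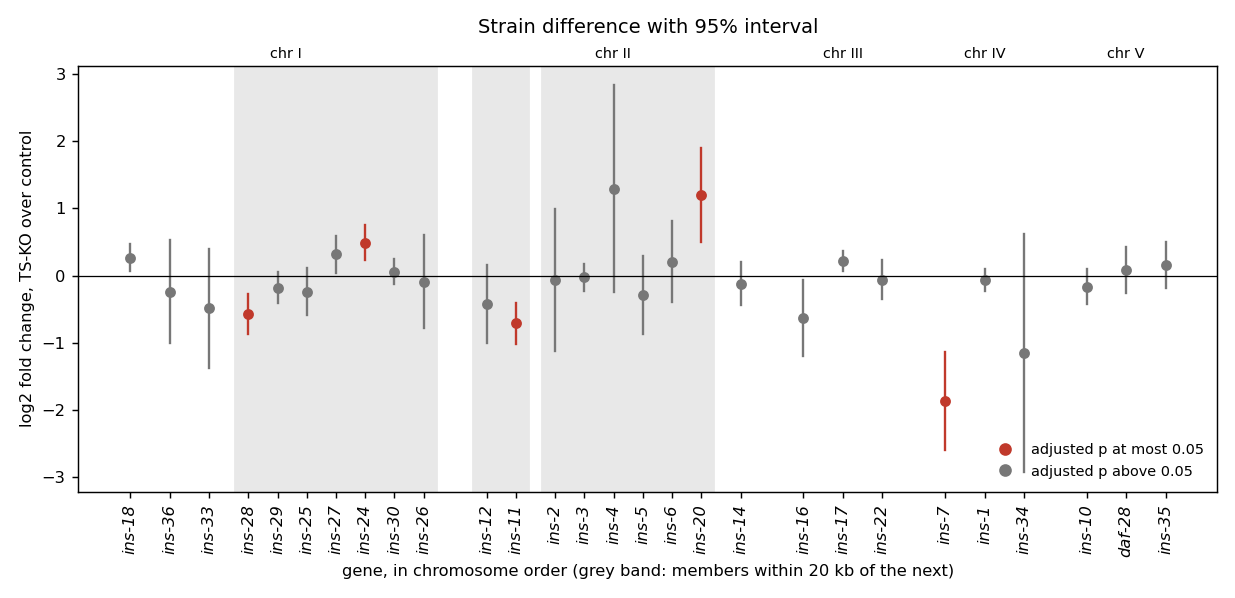
Log2 fold change, TS-KO over control, of the 28 tested members in chromosome order, with the 95% interval from edgeR's fit (bars). Red marks an adjusted p of at most 0.05, and grey bands mark members within 20 kb of the next; the 5 red genes lie at -1.87, -0.71, -0.58, 0.49 and 1.19, and ins-4 and ins-34 have the widest intervals.

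On genetic evidence, 6 members were listed as agonist genes and 3 as antagonist genes, and the other members were not sorted by role. Among the listed agonist genes, ins-7 differed most. It encodes an agonist made in the intestine and in neurons, and it is known as a gene whose transcript falls when DAF-16 is active. It lies on the minus strand of chromosome IV (9682011 to 9682845), beside ins-8, which had 3 counts in all. Counts of ins-7 in replicates 1, 4, 5, 6 and 7 were 8, 2, 5, 3 and 4 in TS-KO and 20, 16, 21, 14 and 13 in control. Every TS-KO library was below every control library, although all of these counts were low. The level was 0.110 ± 0.0595 CPM (SD, n = 5) in TS-KO and 0.403 ± 0.0805 in control, and it was lower in TS-KO in 5 of 5 pairs. The log2 fold change was -1.87 (SE 0.334, 95% interval -2.60 to -1.14, adjusted p = 0.00672 by edgeR). Since ins-7 entered that fit through the strain in which it was high, the fit with no filter on low counts was also read, and there its adjusted p was 0.00835. Leaving out any single library kept the adjusted p between 0.0053 and 0.0235, and it was 0.0528 without replicate 6 of both strains.

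The other listed agonist genes, daf-28, ins-3, ins-4, ins-6 and ins-33, were not called. Over the 6 listed agonist genes, 3 had a log2 fold change above 0 and 3 below, with a median of 0.03. The daf-28 levels were 18.9, 16.5, 22, 23.0 and 12.4 CPM in TS-KO and 19.7, 16.5, 14.0, 17.9 and 19.2 in control. The TS-KO libraries lay both above and below the controls, and the log2 fold change of daf-28 was 0.09 (95% interval -0.26 to 0.43). The ins-3 levels were 7.31, 6.48, 6.70, 7.57 and 6.61 CPM in TS-KO and 7.51, 6.42, 6.10, 8.07 and 7.25 in control, a log2 fold change of -0.03 (95% interval -0.24 to 0.18). These intervals are narrow beside that of ins-4, an agonist gene of the same group on chromosome II. Counts of ins-4 were 67, 9, 60, 57 and 6 in TS-KO and 44, 16, 8, 8 and 11 in control, so that replicates 1, 5 and 6 were high in TS-KO and replicate 1 was high in control. Its log2 fold change was 1.29 (SE 0.702, 95% interval -0.25 to 2.83, adjusted p = 0.292 by edgeR). For ins-6, another agonist gene of that group, the level was 2.03 ± 0.615 CPM in TS-KO and 1.75 ± 0.643 in control (log2 fold change 0.21, adjusted p = 0.684 by edgeR).

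None of the 3 listed antagonist genes was called without the replicate block, and the blocked fit called ins-17 and ins-18. The ins-17 levels were 78.8, 73.6, 67.2, 77.8 and 74.9 CPM in TS-KO and 65.6, 62.8, 55.0, 70.6 and 67.2 in control. TS-KO was higher in 5 of 5 pairs, but the strains overlapped, since control replicate 6 was above TS-KO replicate 5. The log2 fold change of ins-17 was 0.21 (SE 0.0692), with an adjusted p of 0.0873 without the block and 0.0177 with it by edgeR. The ins-18 levels were 18.5, 14.1, 17.4, 19.4 and 15.6 CPM in TS-KO and 15.7, 13.3, 13.7, 14.2 and 13.9 in control. TS-KO was again higher in 5 of 5 pairs, with a log2 fold change of 0.26 (SE 0.0904), an adjusted p of 0.101 without the block and 0.0497 with it by edgeR. The blocked DESeq2 fit did not call ins-18 (adjusted p = 0.0727). Of the 15 unblocked fits with libraries left out, 1 called it, at 0.0406 without TS-KO replicate 4, and the adjusted p reached 0.305 in the others. The ins-1 levels were 39.1, 30.9, 36.2, 38.0 and 32.3 CPM in TS-KO and 39.3, 36.7, 33, 36.6 and 39.1 in control. For ins-1 the log2 fold change was -0.06 (95% interval -0.23 to 0.10), with TS-KO higher in 2 of 5 pairs.

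The ins-11 gene encodes an intestinal peptide known as a signal to neurons in animals fed on pathogens, and it was lower in TS-KO. It lies on the plus strand of chromosome II (5556731 to 5557173), next to ins-12. Counts of ins-11 were 31, 34, 23, 23 and 32 in TS-KO and 55, 53, 46, 41 and 43 in control, with no overlap once scaled. The level was 0.695 ± 0.0731 CPM in TS-KO and 1.14 ± 0.118 in control, lower in 5 of 5 pairs. The log2 fold change was -0.71 (SE 0.138, 95% interval -1.01 to -0.41, adjusted p = 0.0103 by edgeR). The adjusted p stayed between 0.0146 and 0.0328 without any single library, and was 0.0614 and 0.0676 without replicate 5 or replicate 6 of both strains. For its neighbor ins-12 the level was 0.477 ± 0.182 CPM in TS-KO and 0.632 ± 0.0825 in control (log2 fold change -0.42, adjusted p = 0.364 by edgeR).

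**Figure D3:**
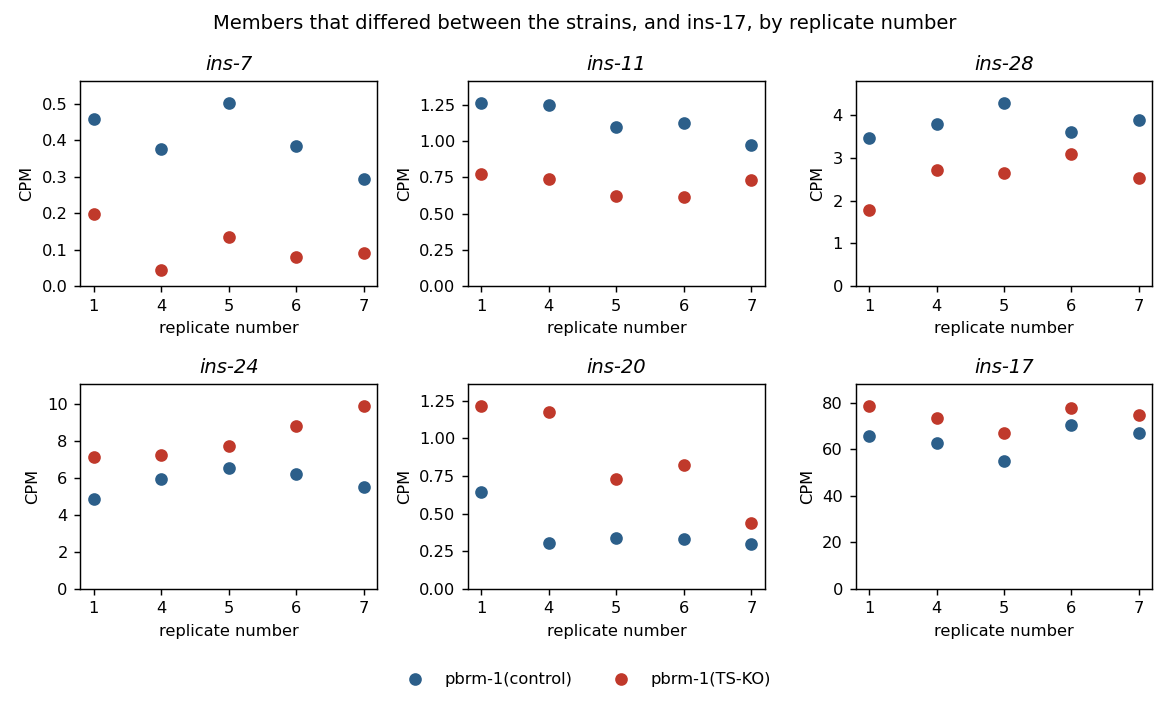
CPM after TMM scaling of ins-7, ins-11, ins-28, ins-24, ins-20 and ins-17 by replicate number (1, 4, 5, 6 and 7), with 1 point per library, blue for pbrm-1(control) and red for pbrm-1(TS-KO). In each panel the strains keep the same order at all 5 numbers, and for ins-20 and ins-17 the ranges of the strains overlap.

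In the group of 7 genes on chromosome I, 2 members differed, in opposite directions. Counts of ins-28 (14012369 to 14013629, minus strand) were 72, 124, 98, 116 and 111 in TS-KO and 151, 161, 179, 132 and 171 in control. TS-KO replicate 1 was the lowest, and every TS-KO library was below every control library. The level of ins-28 was 2.55 ± 0.475 CPM in TS-KO and 3.81 ± 0.309 in control, a log2 fold change of -0.58 (SE 0.137, adjusted p = 0.0271 by edgeR). That call was lost, with an adjusted p between 0.0501 and 0.0598, without TS-KO replicate 5 or any 1 of control replicates 4, 5, 6 and 7. It was also lost without replicate 4, 5, 6 or 7 of both strains, with an adjusted p of up to 0.107 by edgeR.

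Within the same group, counts of ins-24 (14031147 to 14031667, minus strand) were 286, 332, 285, 330 and 433 in TS-KO and 212, 252, 273, 226 and 243 in control. Every TS-KO library was above every control library after scaling, at 7.11 to 9.90 CPM against 4.87 to 6.53. The level of ins-24 was 8.15 ± 1.18 CPM in TS-KO and 5.80 ± 0.642 in control, a log2 fold change of 0.49 (SE 0.116, adjusted p = 0.0271 by edgeR). The adjusted p of ins-24 was 0.0687 without TS-KO replicate 6, 0.0527 without control replicate 4 and 0.0523 without control replicate 7. Without replicate 4, 5, 6 or 7 of both strains ins-24 was not called either, with an adjusted p of up to 0.101 by edgeR.

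The other 5 genes of this group were not called. For ins-27 the levels were 8.62, 9.27, 11, 10.5 and 12.8 CPM in TS-KO and 6.73, 9.46, 8.44, 9.28 and 8.02 in control. TS-KO was higher in 4 of 5 pairs, with a log2 fold change of 0.32 (SE 0.125, adjusted p = 0.146 by edgeR). For ins-30, the gene of the group with the highest CPM, the levels were 18.8, 19.6, 17.8, 19.6 and 23.3 CPM in TS-KO and 16.7, 19.8, 17.7, 21 and 19.9 in control, a log2 fold change of 0.06 (95% interval -0.13 to 0.25). The log2 fold changes of ins-29, ins-25 and ins-26 were -0.18, -0.24 and -0.09.

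In the group of 6 genes on chromosome II, ins-20 alone was called. Counts of ins-20 (6010844 to 6011321, plus strand) were 49, 54, 27, 31 and 19 in TS-KO and 28, 13, 14, 12 and 13 in control. Control replicate 1 stood above the other controls, and it overlapped the lowest TS-KO library, replicate 7. The level was 0.877 ± 0.327 CPM in TS-KO and 0.381 ± 0.147 in control, higher in 5 of 5 pairs, with a log2 fold change of 1.19 (SE 0.318, 95% interval 0.49 to 1.89, adjusted p = 0.0439 by edgeR). The adjusted p of ins-20 was 0.0177 without control replicate 1 and 0.0172 without TS-KO replicate 7. It was between 0.0683 and 0.0981 without any 1 of the other 8 libraries. The call of ins-20 was also lost without replicate 4, 5 or 6 of both strains, with an adjusted p of up to 0.171 by edgeR.

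Of the 23 tested members that were not called, the log2 fold changes ran from -1.16 for ins-34 to 1.29 for ins-4, and the adjusted p from 0.0873 to 0.954 by edgeR. For 13 of the 23, the 95% interval reached less than 0.5 to either side of the estimate, and the remaining 10 were measured less closely. Among the genes with high levels, ins-35 was at 17.5, 18.8, 19.0, 19.7 and 21.4 CPM in TS-KO and 12.4, 24.5, 14.5, 18.3 and 16.8 in control, so that control replicate 4 was the highest of all and control replicate 1 the lowest. The log2 fold change of ins-35 was 0.16 (95% interval -0.18 to 0.49). Over all tested members, 4 were higher in TS-KO in 5 of 5 pairs (ins-17, ins-18, ins-20 and ins-24), 4 were lower in 5 of 5 (ins-7, ins-11, ins-16 and ins-28) and 20 were mixed. The share of all genes with the same order in every pair was not computed, so these counts describe the members only. The level of ins-16 was 0.641 ± 0.161 CPM in TS-KO and 1.00 ± 0.323 in control, a log2 fold change of -0.64 (SE 0.256, adjusted p = 0.157 by edgeR).

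The libraries were also compared by replicate number, with each number taken as a day of culture shared by the strains. The labels give the numbers without dates. By edgeR's test of the replicate terms, with strain in the fit, 0 of 28 members and 0 of 16817 genes (0%) were called. At an unadjusted p under 0.05 the test gave 4 members (14.3%), ins-2, ins-17, ins-20 and ins-34, and 16.5% of all genes. A likelihood ratio test in DESeq2 called 895 of 15428 genes (5.8%), with ins-34 the only member among them. In replicate 5, ins-17 was at its lowest in both strains, 67.2 CPM in TS-KO and 55.0 in control. In replicate 1, ins-20 was at its highest in both strains, 1.22 CPM in TS-KO and 0.643 in control.

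**Figure D4:**
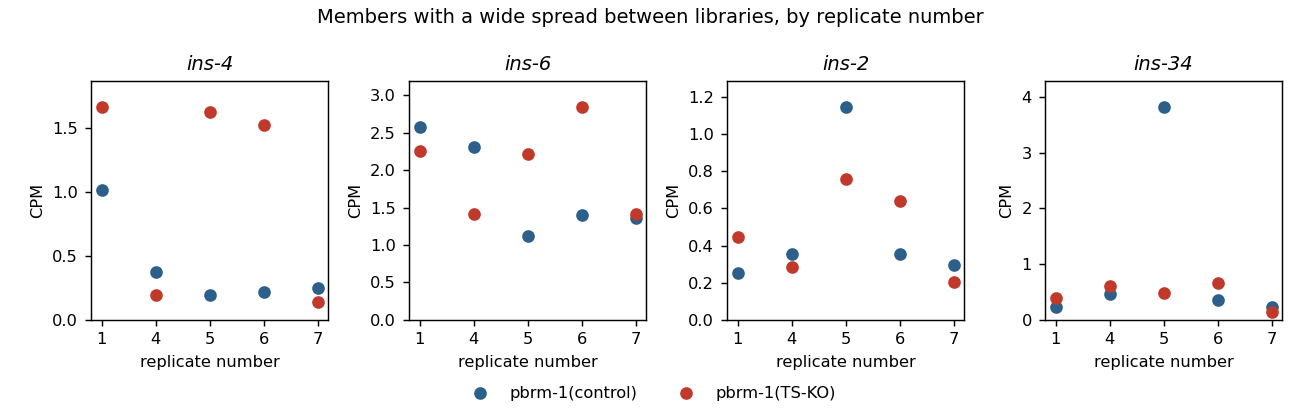
CPM after TMM scaling of ins-4, ins-6, ins-2 and ins-34 by replicate number, with 1 point per library, blue for pbrm-1(control) and red for pbrm-1(TS-KO). Single libraries stand far from the rest, among them control replicate 5 at 3.83 CPM for ins-34 and 1.15 CPM for ins-2, and ins-4 is high in 3 of the 5 TS-KO libraries.

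Some members had a single library far from the others. Counts of ins-34 were 16, 28, 18, 25 and 6 in TS-KO and 10, 20, 160, 13 and 10 in control, where the high value was control replicate 5. The log2 fold change of ins-34 was -1.16 (95% interval -2.92 to 0.61) with that library and 0.51 without it. Counts of ins-2 were 18, 13, 28, 24 and 9 in TS-KO and 11, 15, 48, 13 and 13 in control, again with control replicate 5 the highest, and its log2 fold change of -0.06 became 0.55 without that library. This is also the library with the high cuticle markers, 768 CPM in sum, whose part in the values of ins-34 and ins-2 was not tested. Between the strains, edgeR called 0 of the 9 tested markers, and 6 had an unadjusted p under 0.05. DESeq2 gave an adjusted p to 5 of the 9. It called 2 lower in TS-KO, dpy-17 (adjusted p = 0.0365) and wrt-1 (adjusted p = 0.0184). Without control replicate 5, 3 members were called, ins-7, ins-11 and ins-24, against 5.33% of all genes in that fit.

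The genes that process, secrete and respond to insulin-like peptides were read from the same fit. Of 29 such genes, all tested, 1 was called by edgeR, against 7.72% of all genes, so calls were not more frequent in this list. The called gene, asna-1, encodes an ATPase known to promote insulin secretion. Its level was 175 ± 12.1 CPM in TS-KO and 145 ± 9.25 in control, higher in 5 of 5 pairs, with a log2 fold change of 0.27 (SE 0.0597, adjusted p = 0.0213 by edgeR), and 0 of the 29 genes were called by edgeR without control replicate 5. Of the 9 processing and secretion genes, 6 had a log2 fold change above 0, with a median of 0.07. Of the 13 genes from the receptor to FOXO, 0 were called by edgeR or DESeq2, and 1, sgk-1, had an unadjusted p under 0.05. The receptor gene daf-2 was at 453 ± 72.1 CPM in TS-KO and 443 ± 35.2 in control (log2 fold change 0.03, adjusted p = 0.881 by edgeR), and daf-16 was at 469 ± 58.3 and 507 ± 42.1 (log2 fold change -0.11, adjusted p = 0.456 by edgeR). Of 7 FOXO target genes, 0 were called by edgeR or DESeq2, and 1, hsp-12.6, had an unadjusted p under 0.05.

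Markers of tissues that make insulin-like peptides were set beside these results. The summed CPM of the 8 intestine markers was 8330 to 9009 in TS-KO and 6773 to 7523 in control, without overlap, and 3 of the 8, ifb-2, vha-6 and asp-1, were called higher. Most of this sum was asp-1, at 5559 ± 180 CPM in TS-KO and 4747 ± 364 in control. At an unadjusted p under 0.05 there were 6 of the 8 markers, the 3 called ones and, with values below control, ges-1, act-5 and spl-1 (log2 fold changes of -0.24, -0.40 and -0.14). Of the members described above as made in the intestine, ins-7, also made in neurons, and ins-11 were lower in TS-KO, and ins-35 was not called. Members were not sorted by tissue, so these are not a full list. The 10 neuron markers summed to 2111 to 2228 CPM in TS-KO and 1947 to 2162 in control, with 0 called by edgeR or DESeq2 and 1 at an unadjusted p under 0.05. The 10 sensory neuron markers summed to 161 to 211 and 135 to 181 CPM, with 1, gcy-8, called higher (adjusted p = 0.0327 by edgeR, and 0.0566 with the replicate block). The 6 body wall muscle markers summed to 15730 to 19450 and 16990 to 18700 CPM, with 0 called by edgeR or DESeq2 and 0 at an unadjusted p under 0.05. The part of these tissues in the values of the insulin-like genes was not tested.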

How the data were processed

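RNA of whole L1 larvae was polyA selected and sequenced from 5 pbrm-1(TS-KO) and 5 pbrm-1(control) libraries. The authors trimmed the reads, aligned them with STAR 2.5.2b, counted unique reads in exons with featureCounts of Subread 1.5.2 and deposited raw counts per gene, which were used here. Their methods name the assembly WBcel325, taken here as WBcel235. All 10 columns were whole numbers with differing totals. Gene symbols, positions and exon lengths came from the Ensembl 115 annotation of WBcel235, which held 46581 of the 46756 genes.

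The tests used edgeR 4.0.16 in R 4.3.3, on genes passing filterByExpr, with TMM scaling, strain as the only term, quasi-likelihood F tests and Benjamini-Hochberg adjustment over all genes tested. SE values are approximate, from the log2 fold change and its F statistic, and log values used a prior count of 2. CPM are counts scaled to the TMM library size. Alternatives were RLE size factors, 2 other count filters, DESeq2 1.42.0, voom with quality weights in limma 3.58.1, a replicate block, and leaving out libraries.

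Replicate numbers were taken as pairs because the methods state parallel collection on different days. Deviations from the strain means correlated at 0.505, 0.283, 0.124, -0.0514 and 0.351 within numbers 1, 4, 5, 6 and 7, with a median of 0.283, against -0.0972 between numbers. All 20 pairs of libraries within strains differed by more than counting noise.

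The members and lists were chosen with earlier results of these data known. Members given singly were those called by edgeR, by edgeR with the block or by DESeq2, those whose strains did not overlap, and the 8 with the highest CPM; ins-2, ins-4, ins-6, ins-12, ins-16 and ins-34 were added after their values were seen. Of the intestine markers, opt-2 did not match the annotation. No sequences are printed.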

Additional observations from a re-analysis of the deposited data

Results flagged for a closer look

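Of 56 groups of 5 libraries screened for a library far from the rest (28 members in 2 strains), 4 held one, and chance flags about 1 group in 20. In control replicate 5, ins-34 was at 3.83 CPM (160 counts) against 0.227 to 0.471 in the other controls, and ins-2 was at 1.15 CPM (48 counts) against 0.253 to 0.356. In control replicate 1, ins-4 was at 1.01 CPM (44 counts) against 0.191 to 0.376, and ins-20 was at 0.643 CPM (28 counts) against 0.295 to 0.335.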

How the results depend on the processing

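Against the 5 members called by edgeR, RLE size factors gave 5 (7.66% of all genes), no filter 4 (3.08%), a minimum of 10 counts in every library 4 (8.21%, with ins-7 not tested), DESeq2 4 (11.8%), limma-voom with quality weights 6 (17.2%), edgeR with the replicate block 7 (10.9%) and DESeq2 with the replicate block 4 (11.5%). Leaving out 1 library gave 2 to 5 (3 without TS-KO replicate 5 or 6 or control replicate 5 or 6, and 2 without control replicate 4 or 7). The share of all genes called in these fits was 4.78% to 7.1%. Leaving out both libraries of a number gave 0 to 5. It gave 0 without replicate 6 (408 genes, 2.42% of all), 1 without replicate 5 (3.14%), 2 without replicate 4 (4.44%) and 3 without replicate 7 (5.35%). Fewer libraries entered those fits. In edgeR the block called ins-17 and ins-18 in addition. In DESeq2 with the block ins-17 was called, and ins-18 (adjusted p = 0.0727) and ins-11 (0.167) were not. ins-20 had an adjusted p of 0.0528 with no filter. The 4 members without overlap stayed 4 under RLE factors.

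The count of members called by replicate number was 1 (ins-34) with no filter, by the DESeq2 likelihood ratio test and without TS-KO replicate 5, and 0 in the other 14 fits with libraries left out. The count of pathway genes was 2 by DESeq2 (asna-1 and aex-5), 2 by DESeq2 with the replicate block (asna-1 and egl-3), and 0 to 1 with libraries left out. The causes were not tested.

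Directions turned only in members that were not called. With limma-voom the log2 fold change was -0.028 for ins-30, 0.48 for ins-2, 0.011 for ins-3 and 0.10 for ins-34, and with the replicate block that of ins-2 was 0.014 by edgeR and 0.038 by DESeq2. With 1 library left out it ran from -0.30 to 0.55 for ins-2, -1.40 to 0.51 for ins-34, -0.0016 to 0.20 for daf-28, -0.0063 to 0.099 for ins-30 and -0.077 to 0.023 for ins-3. Without replicate 5 of both strains it was 0.31 for ins-2, 0.49 for ins-34 and -0.048 for daf-28, and without replicate 7 of both it was 0.0012 for ins-2. Low counts limit ins-7, ins-33, ins-36 and the 11 untested members, and intervals and floors cover counting error or the spread of these 10 libraries only.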
